A study of Mus musculus with 14 samples.

Results

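Levels of 10 early response genes of the Egr, Nr4a, Klf and Ier families were followed in lung RNA of wild-type and jnk1-/- mice, with and without mechanical ventilation. The members were Egr1, Egr2, Egr3, Nr4a1, Nr4a2, Klf2, Klf4, Klf6, Ier2 and Ier3, taken by gene symbol, and each was read by 1 probe, so they make up 10 of the 13923 genes that the 19621 probes of the array name. Each of the 14 mice gave 1 CodeLink array: 3 control and 4 ventilated animals of each genotype. All mice were adult and on the C57/BL6 background. Wild-type mice were bought from Jackson Laboratory, and the jnk1-/- line was generated at Yale University. Genotype and source of the mice therefore cannot be told apart here. The jnk1-/- mice lack c-Jun N-terminal kinase 1 (JNK1) in every tissue, not in lung cells alone. Ventilation was given for 8 hours at a tidal volume of 10 ml/kg with a positive end-expiratory pressure of 2 cmH2O, and the ventilated mice also received a muscle relaxant. Controls were killed right after anesthesia, so ventilation, its duration and the relaxant cannot be told apart in these comparisons.

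Immediate early genes are transcribed within minutes of a stimulus such as stretch, a growth factor or a cytokine, without the need for new protein. Mitogen-activated protein kinases, among them ERK, p38 and JNK, act on factors that already sit on these promoters: serum response factor with its ternary complex partners on CArG boxes, CREB and ATF proteins on cyclic AMP response elements (CRE), and MEF2. The products are mostly short-lived transcription factors that set the next wave of transcription. Egr proteins are zinc finger factors that bind GC-rich sites, Nr4a proteins are orphan nuclear receptors, and Klf proteins are Krüppel-like zinc finger factors, of which Klf2 and Klf4 are known in endothelium exposed to flow and Klf2 also in resting T cells. Ier2 and Ier3 are small immediate early proteins outside these families, and Ier3 is a known NF-κB target linked to cell survival.

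Promoter windows of 5 members are shown because they hold matches to the kinds of response element that early signals are known to act on. Each has 300 bases, most of them upstream of the annotated start in RefSeq (GRCm38.p6), and is written 5′ to 3′ on the gene's strand with matches to CRE cores, MEF2 sites and the CArG box in capitals.
Nr4a1, chr15:101266596-101266895, plus strand, CRE cores in capitals with the bases TG before them: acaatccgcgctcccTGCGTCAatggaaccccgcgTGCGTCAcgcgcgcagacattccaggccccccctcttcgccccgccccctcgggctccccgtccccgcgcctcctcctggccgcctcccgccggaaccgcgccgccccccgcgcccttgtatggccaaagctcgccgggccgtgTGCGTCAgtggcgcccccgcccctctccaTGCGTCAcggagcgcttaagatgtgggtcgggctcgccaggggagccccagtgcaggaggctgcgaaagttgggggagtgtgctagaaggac
Nr4a2, chr2:57123954-57124253, minus strand, CRE cores and a MEF2 site in capitals: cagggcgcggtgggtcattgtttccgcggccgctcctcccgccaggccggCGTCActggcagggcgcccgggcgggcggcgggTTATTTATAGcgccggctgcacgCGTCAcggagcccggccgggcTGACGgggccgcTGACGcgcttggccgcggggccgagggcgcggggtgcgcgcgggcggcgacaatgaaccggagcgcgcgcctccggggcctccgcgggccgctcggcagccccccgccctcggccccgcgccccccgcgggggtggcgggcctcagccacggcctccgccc
Klf2, chr8:72318812-72319111, plus strand, a CRE core and a MEF2 site in capitals: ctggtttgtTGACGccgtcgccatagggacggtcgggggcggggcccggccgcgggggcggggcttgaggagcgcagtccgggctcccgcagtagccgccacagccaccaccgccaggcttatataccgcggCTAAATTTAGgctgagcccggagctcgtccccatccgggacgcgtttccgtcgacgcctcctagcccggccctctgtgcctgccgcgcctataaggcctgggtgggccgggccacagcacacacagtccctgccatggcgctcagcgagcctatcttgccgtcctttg
Klf4, chr4:55532426-55532725, minus strand, a CRE core in capitals: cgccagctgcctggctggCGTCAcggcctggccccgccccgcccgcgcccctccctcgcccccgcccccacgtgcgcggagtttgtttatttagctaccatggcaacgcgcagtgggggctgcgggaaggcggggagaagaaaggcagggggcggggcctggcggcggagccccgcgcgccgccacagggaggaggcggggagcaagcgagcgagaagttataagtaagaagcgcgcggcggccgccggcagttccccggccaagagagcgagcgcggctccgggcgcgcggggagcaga
Egr2, chr10:67537619-67537918, plus strand, CRE cores and a CArG box in capitals: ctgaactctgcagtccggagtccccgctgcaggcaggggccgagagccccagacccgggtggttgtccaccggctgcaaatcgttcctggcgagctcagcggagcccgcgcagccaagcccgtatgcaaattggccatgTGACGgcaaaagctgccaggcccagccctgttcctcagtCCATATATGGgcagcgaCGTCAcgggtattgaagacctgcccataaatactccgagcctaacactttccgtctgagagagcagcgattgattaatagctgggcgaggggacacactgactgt

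The CRE core CGTCA, searched on both strands, occurred 4 times in the Nr4a1 window, and all 4 copies read TGCGTCA. Nr4a2 also held 4 CRE cores, Egr2 held 2, and Klf2 and Klf4 held 1 each. A CRE core was present in 20.8% of the 32851 RefSeq promoter windows of this length, and in 31.6% of the 9690 windows with a GC content of at least 60%, the lowest of the 5 shown. Of those GC-rich windows, which include the 5 shown, 0.557% held 4 or more CRE cores. The share with 4 or more copies of TGCGTCA, which overlaps the core, was 0.0103%, and this is the Nr4a1 window alone. The Egr2 window held a CArG box, which 1.63% of all windows and 1.07% of the GC-rich windows had. Nr4a2 and Klf2 each held a MEF2 site, found in 3.19% of all and 0.588% of the GC-rich windows. The Egr site GCGGGGGCG lay in the windows of Nr4a1, Klf2 and Klf4, in 2.91% of all windows and in 8.77% of the GC-rich ones. Windows of Klf6 and Ier3 matched none of these letters, and the AP-1 site TGANTCA, present in 7.81% of all and 3.35% of the GC-rich windows, was in none of the 7 members' windows searched. Egr2 has 5 annotated starts, of which the window with the most matches is shown, and no window of Egr1, Egr3 or Ier2 was used here. These matches are a description of the letters, and binding was not measured.

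**Figure D1:**
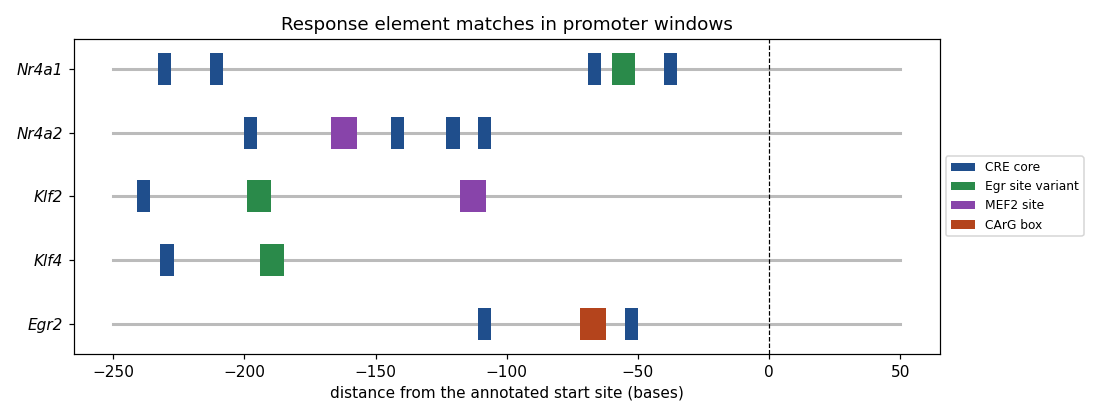
Matches to response elements in the promoter windows of 5 members, by distance in bases from the annotated start site (dashed line at 0). Coloured blocks mark CRE cores, the Egr site, MEF2 sites and the CArG box, and the 4 CRE cores of Nr4a1 and of Nr4a2 all lie before the start.

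The tissue and the arrays were checked before the members were read. All 5 measured markers of lung epithelium were bright, with a summed level between 14.50 and 15.44 on the log2 scale over all arrays, against array medians of 5.76 to 5.83. Mapk8, which encodes JNK1, did not separate the genotypes (difference between controls −1.48, standard error 0.88, adjusted p = 0.366 from limma). Its probe was dim in every group, with means of 3.05 in control and 3.54 in ventilated wild-type mice. In jnk1-/- mice the means were 1.57 and 2.81. No source used here says which exons the probe covers either, so the genotype labels were not checked by it. The jnk1-/- control arrays stood apart: all 8 skeletal muscle markers and 6 of 8 markers of stratified squamous epithelium were higher in them than in wild-type controls. So were 1 of the lung markers, Sftpb, and 1 of 9 measured T and B cell markers. The summed level of the muscle markers lay between 13.05 and 13.61 on these arrays and between 8.03 and 9.03 on all others. For the squamous markers it lay between 11.79 and 12.94 on the jnk1-/- control arrays and between 7.48 and 9.30 elsewhere. Wild-type control 2 held 10.7% of its entries at the lowest deposited value, where the other arrays held 1.86% to 6.98%. Its r with the authors' values was the lowest, 0.991. Some controls were closer to each other than the rest: over the brighter probes the SD of the log2 difference was 0.314 between wild-type controls 2 and 3 (0.598 and 0.508 for the pairs with control 1) and 0.309 between jnk1-/- controls 1 and 2 (0.678 and 0.660 for the pairs with control 3). Averaging each close pair to 1 array left Klf2 as the only member called in any comparison below. Among the other cells that lung RNA can hold, 5 of 10 neutrophil markers rose with ventilation in each genotype and 1, Ltf, fell in jnk1-/- mice, while none of 7 macrophage markers was called in any comparison.

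Of the 10 members, 1 was called in each of 3 comparisons, at an adjusted p under 0.05 over all 19621 probes in limma. Klf2 fell with ventilation in jnk1-/- lungs, Klf4 was higher in jnk1-/- than in wild-type controls, and Ier2 was higher in ventilated jnk1-/- than in ventilated wild-type lungs. These counts stand against 12.8%, 3.92% and 0.596% of all genes called in the same comparisons in either direction. In wild-type lungs ventilation called none of the members (0 of 10 in limma, 2 of them at an unadjusted p under 0.05), where 4.31% of all genes were called, and the methods' t-test called none as well, with 1 at an unadjusted p under 0.05. The difference of the ventilation effect between the genotypes also called none (0 of 10 in limma, 1 at an unadjusted p under 0.05), against 0.366% of all genes.

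Counted by overlap of the arrays, 3 members did not overlap between control and ventilated wild-type mice, namely Nr4a2 and Klf6, which read higher after ventilation, and Klf2, which read lower. The background for that count was 23.9% of all genes. In jnk1-/- mice 2 members did not overlap, Ier2 and Klf2, against 25.9% of all genes. Between the controls of the genotypes Nr4a1, Klf4 and Ier2 did not overlap, 3 members against 27.9% of all genes, and between the ventilated groups Ier2 and Klf2 did not, 2 members against 6.9%. The median log2 difference of the members was 0.43 for ventilation in wild-type mice (0.04 over all genes), 0.49 for ventilation in jnk1-/- mice (−0.08), 0.47 for the genotype in controls (0.08), and 1.05 for the genotype after ventilation (−0.02). These medians include Egr3, which was near background, and comparisons that use the same arrays are not independent of each other.

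**Figure D2:**
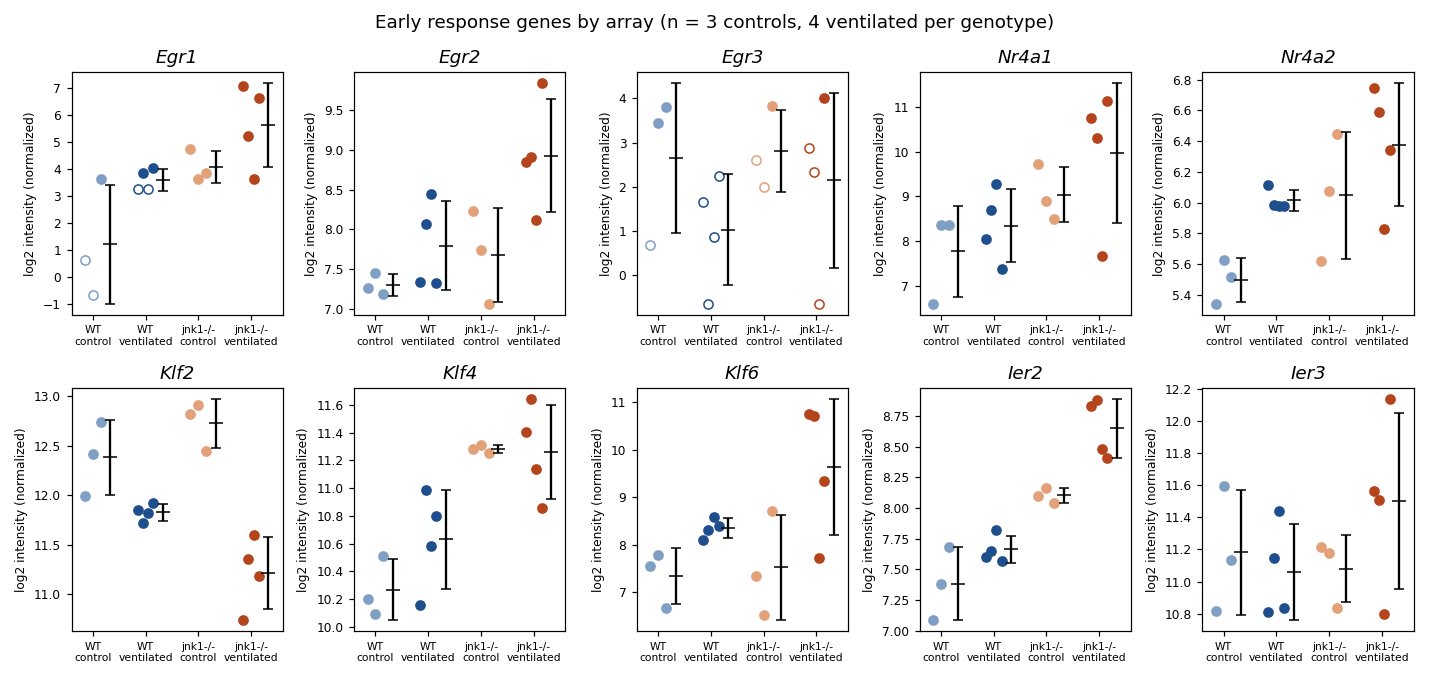
Log2 intensity of each member on each array, after normalization, in the 4 groups (WT, wild-type); open circles are arrays on which the gene is at the floor of the authors' normalized table, and horizontal marks with bars show mean ± SD of a group. The 4 ventilated jnk1-/- arrays of Klf2 lie between 10.74 and 11.60, below all other arrays of that gene, and all 7 jnk1-/- arrays of Ier2 lie above all 7 wild-type arrays.

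Egr1, the prototype of the family and an early regulator of injury genes in vessel and lung, was dim. It read 0.64, −0.64 and 3.63 (log2 intensity, here and below in the order of the replicate numbers) in wild-type controls and 3.27, 3.83, 3.25 and 4.01 in ventilated wild-type mice. In jnk1-/- controls Egr1 read 4.75, 3.61 and 3.84, and after ventilation 7.06, 5.20, 3.61 and 6.61. Of the 4 highest arrays 3 were ventilated jnk1-/- arrays, while replicate 3 of that group read as low as the lowest jnk1-/- control, and the groups overlapped within each genotype. In the authors' normalized table Egr1 was at the floor of 3.12 on 2 of 3 wild-type control arrays and 2 of 4 ventilated wild-type arrays, and on none of the jnk1-/- arrays. The difference for ventilation in wild-type mice, 2.38 (standard error 0.95, adjusted p = 0.183 from limma), therefore rests on values near background, and it was 0.11 in the authors' values. In jnk1-/- mice the ventilation difference of Egr1 was 1.55 (standard error 0.95, adjusted p = 0.334), and 1.62 in the authors' values. Between the genotypes Egr1 differed by 2.86 in controls (adjusted p = 0.139), by 0.45 in the authors' values of the same arrays, and by 2.03 after ventilation (adjusted p = 0.467). None of these passed the threshold over all arrays. Without wild-type control replicate 3, the brightest of that group, the genotype difference in controls was 4.07 and passed it (adjusted p = 0.0417 from limma), and without replicate 2 it was 1.93 (adjusted p = 0.377 from limma).

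Egr2, a relative of Egr1 known from myelinating cells and from T cells, was measured well above the floor on all 14 arrays. Wild-type controls read 7.26, 7.45 and 7.18, and ventilated wild-type mice 7.34, 8.07, 8.45 and 7.33. The jnk1-/- controls read 8.23, 7.74 and 7.06, and the ventilated jnk1-/- mice 8.85, 8.91, 8.11 and 9.85. Of the 4 ventilated jnk1-/- arrays, 3 were above every other array of this gene, and replicate 3 lay within the range of the controls. The ventilation difference was 1.25 in jnk1-/- mice (standard error 0.41, adjusted p = 0.0708 from limma) and 0.50 in wild-type mice (standard error 0.41, adjusted p = 0.548 from limma). Without ventilated jnk1-/- replicate 3 the former was 1.52 and passed the threshold (adjusted p = 0.0285 from limma), as did the difference over all arrays when dim probes were left out of the fit (adjusted p = 0.0179 from limma). Under the other 15 alternatives the jnk1-/- difference was not called. The ventilation effects of the genotypes differed by 0.75, with a 95% confidence interval from −0.52 to 2.02. Between the ventilated groups Egr2 differed by 1.13, with an interval from 0.30 to 1.96 and an adjusted p of 0.313.

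Egr3 lay at the authors' floor on 10 of the 14 arrays, and on all 4 of the ventilated wild-type arrays. Its values ran from −0.64, the floor set here, to 4.01, and no fold change is given. The Egr genes thus held no called member, and the array values of Egr1 and Egr2 were highest in the ventilated jnk1-/- group.

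The nuclear receptors Nr4a1 and Nr4a2 are induced by the same kind of signals, and Nr4a1 (Nur77) is known for its role in T cell death and in restraint of macrophage inflammation. Nr4a1 read 6.59, 8.36 and 8.35 in wild-type controls and 8.04, 8.69, 9.27 and 7.37 in ventilated wild-type mice. It read 9.72, 8.90 and 8.50 in jnk1-/- controls and 10.75, 10.31, 7.66 and 11.14 in ventilated jnk1-/- mice. All 3 jnk1-/- controls were above the 3 wild-type controls, and 3 of 4 ventilated jnk1-/- arrays were above all other arrays, but replicate 3 of that group was below all jnk1-/- controls. The spread within groups was wide, with an SD of 1.57 among the ventilated jnk1-/- arrays and 1.02 among the wild-type controls. The ventilation difference of Nr4a1 was 0.58 in wild-type mice (standard error 0.79, adjusted p = 0.745 from limma) and 0.93 in jnk1-/- mice (standard error 0.79, adjusted p = 0.513 from limma). In wild-type mice it was −0.01 without control replicate 1, the lowest array of this gene. Between the genotypes it was 1.27 in controls (adjusted p = 0.418) and 1.62 after ventilation (95% confidence interval 0.04 to 3.21, adjusted p = 0.486).

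Nr4a2 (Nurr1), known from dopamine neurons and from inflamed tissue, read 5.34, 5.63 and 5.52 in wild-type controls and 6.12, 5.98, 5.98 and 5.98 in ventilated wild-type mice. These 2 groups did not overlap. In jnk1-/- controls Nr4a2 read 5.62, 6.08 and 6.44, and in ventilated jnk1-/- mice 6.75, 6.59, 5.83 and 6.34, with overlap. The ventilation difference was 0.52 in wild-type mice (standard error 0.24, adjusted p = 0.247 from limma) and 0.33 in jnk1-/- mice (standard error 0.24, adjusted p = 0.427 from limma). The third member of the family, Nr4a3, was called in both genotypes and is given with the other family genes below.

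Among the Klf genes, Klf2 (chr8:72319062-72321654, GRCm38.p6) had the lowest adjusted p of the members for ventilation. Klf2 is induced by laminar flow in endothelium, where it holds inflammation and clotting in check, and it keeps T cells in a resting state. In jnk1-/- controls it read 12.82, 12.91 and 12.45, and after ventilation 10.74, 11.35, 11.60 and 11.18. All 4 ventilated arrays were below all 3 controls, and the fall of Klf2 to 0.351 of the control level corresponds to a log2 difference of −1.51 (standard error 0.23, 95% confidence interval −2.02 to −1.001, adjusted p = 0.00246 from limma). Of all genes 6.2% were called lower in this comparison. Wild-type controls read 11.99, 12.42 and 12.74, and ventilated wild-type mice 11.85, 11.71, 11.82 and 11.92. The wild-type groups did not overlap either, but the difference of −0.56 (standard error 0.23, adjusted p = 0.204) did not pass the threshold. It passed only when arrays were weighted by quality (−0.72, adjusted p = 0.0324 from limma). The ventilation effect differed between the genotypes by −0.95 (standard error 0.33, 95% confidence interval −1.67 to −0.23), which had an adjusted p of 0.251 and so was not called. The call of Klf2 in jnk1-/- mice was kept under 16 of 17 alternatives, with differences between −1.65 and −1.35, and was lost in the methods' t-test (adjusted p = 0.0804).

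Markers of cells that are known to express Klf2 were read on the same arrays. Of 9 measured T and B cell markers, 4 fell in jnk1-/- mice and 2 in wild-type mice, with medians of −1.42 and −1.29. The B cell gene Ms4a1 fell by 3.27 and 3.48, and Cd79b by 1.41 and 1.82, in that order of genotypes. Their summed level lay between 10.91 and 11.26 in jnk1-/- controls and between 9.14 and 10.01 after ventilation, and between 10.40 and 10.74 and between 9.003 and 10.07 in the wild-type groups. In bulk tissue fewer cells of a type and less RNA per cell cannot be told apart. Of 7 measured endothelial markers none was called in jnk1-/- mice, with summed levels of 12.21 to 12.41 in controls and 12.04 to 12.43 after ventilation. In wild-type mice 1 of 7 fell, the receptor Kdr, by 0.97. There the summed level lay between 12.56 and 12.71 in controls and between 11.75 and 12.29 after ventilation, without overlap. The muscle and squamous markers also fell in jnk1-/- mice, 8 of 8 and 7 of 8. Wild-type controls, where the muscle markers summed to 8.67 to 8.98 and the squamous markers to 7.48 to 8.28, had a Klf2 level of 12.38 ± 0.38 (SD, n = 3), against 11.22 ± 0.36 (SD, n = 4) in ventilated jnk1-/- mice with sums of 8.03 to 8.20 and 8.72 to 9.30. These groups differ in genotype and in ventilation at once. The parts of the lymphocyte, endothelial, muscle and squamous markers in the Klf2 difference were not tested.

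Klf4 (chr4:55527137-55532475, GRCm38.p6), a barrier and differentiation factor of epithelia that is also expressed in endothelium and monocytes, differed by genotype. It read 10.20, 10.09 and 10.51 in wild-type controls and 11.28, 11.31 and 11.25 in jnk1-/- controls. The groups did not overlap, the jnk1-/- controls were close to each other, and Klf4 was higher in the jnk1-/- controls by 1.01 (standard error 0.25, 95% confidence interval 0.47 to 1.56, adjusted p = 0.0438 from limma), or 2.02-fold, where 1.99% of all genes were called higher. After ventilation the wild-type arrays read 10.16, 10.99, 10.58 and 10.80, and the jnk1-/- arrays 11.40, 11.64, 11.14 and 10.86. The ventilated groups overlapped by 1 array of each, with a difference of 0.63 (standard error 0.22, adjusted p = 0.321). Ventilation itself gave differences of 0.36 in wild-type mice (adjusted p = 0.421) and −0.02 in jnk1-/- mice (adjusted p = 0.971). Squamous markers, which epithelia rich in Klf4 express, were high on the same jnk1-/- control arrays, and their part in the Klf4 difference was not tested. Klf4 had a mean of 11.28 ± 0.03 (SD, n = 3) in the jnk1-/- controls, with squamous sums of 11.79 to 12.94, and of 11.26 ± 0.34 (SD, n = 4) in ventilated jnk1-/- mice, with sums of 8.72 to 9.30. The call was close to the threshold: leaving out any of wild-type control replicates 1, 2 and 3 or jnk1-/- control replicates 1, 2 and 3 lost it, with adjusted p from 0.0730 to 0.147 and differences from 0.93 to 1.14. It was kept under 6 of 16 alternatives in all.

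Klf6, which is induced by tissue injury and acts on genes of growth arrest and matrix, had the largest ventilation difference of the members in jnk1-/- mice. It read 7.34, 6.52 and 8.71 in jnk1-/- controls and 10.75, 10.71, 7.72 and 9.34 after ventilation. Replicate 3 of each group lay toward the other group, so that the groups overlapped. The difference of 2.10 (standard error 0.69, 95% confidence interval 0.60 to 3.61, adjusted p = 0.0694 from limma) did not pass. It passed without ventilated jnk1-/- replicate 3 (2.74, adjusted p = 0.00855 from limma), and likewise when jnk1-/- control replicate 3 was left out (2.70, adjusted p = 0.0422 from limma). It also passed with array weights (2.66, adjusted p = 0.00764 from limma) and when dim probes were left out of the fit (adjusted p = 0.0160 from limma). Under the other 13 alternatives it was not called. Wild-type controls read 7.56, 7.79 and 6.68, and ventilated wild-type mice 8.10, 8.31, 8.59 and 8.40, with no overlap. The wild-type difference was 1.01 (standard error 0.69, adjusted p = 0.455), and the effects of the genotypes differed by 1.10, with an interval from −1.03 to 3.22. Between the controls the sign of the Klf6 difference (0.18) was not settled, since it was −0.41 without jnk1-/- control replicate 3.

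Ier2 (chr8:84661331-84662852, GRCm38.p6), a nuclear protein of the immediate early response, was the member that separated the genotypes throughout. Wild-type controls read 7.09, 7.38 and 7.68, and ventilated wild-type mice 7.60, 7.65, 7.82 and 7.57. The jnk1-/- controls read 8.10, 8.16 and 8.04, and ventilated jnk1-/- mice 8.83, 8.88, 8.48 and 8.41. The lowest of the 7 jnk1-/- arrays, 8.04, was above the highest of the 7 wild-type arrays, 7.82. No other member did so, and 0.395% of all genes were higher on all jnk1-/- than on all wild-type arrays. After ventilation Ier2 was higher in jnk1-/- mice by 0.99 (standard error 0.17, 95% confidence interval 0.62 to 1.35, adjusted p = 0.0243 from limma), or 1.98-fold, where 0.266% of all genes were called higher. Between controls the difference was 0.72 (standard error 0.19, adjusted p = 0.0613). Ventilation gave a difference of 0.55 in jnk1-/- mice, without overlap of the groups (standard error 0.18, adjusted p = 0.0730 from limma, and from 0.0285 to 0.0408 with array weights, without dim probes and in the authors' values), and 0.28 in wild-type mice (standard error 0.18, adjusted p = 0.429 from limma). The effects differed by 0.27, with an interval from −0.29 to 0.83.

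The size of the Ier2 difference after ventilation was stable, between 0.91 and 1.07 over 18 alternatives, but its call was not. It was kept under 8 of them and lost under 10, with adjusted p from 0.00388 to 0.268. Leaving out any of ventilated wild-type replicates 1, 2, 3 and 4 or of ventilated jnk1-/- replicates 1 and 2 lost the call, with adjusted p up to 0.0921. None of the 8 muscle and 8 squamous markers was called between the ventilated groups. Their summed levels did not overlap there, with 8.29 to 9.03 in wild-type and 8.03 to 8.20 in jnk1-/- mice for muscle, and 7.98 to 8.45 and 8.72 to 9.30 for squamous markers, and their part in the Ier2 difference was not tested.

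Ier3 read 10.82, 11.59 and 11.13 in wild-type controls, and after ventilation 10.81, 11.15, 11.44 and 10.83. It read 11.22, 11.18 and 10.84 in jnk1-/- controls and 11.57, 11.51, 10.80 and 12.14 after ventilation. All groups of this gene overlapped, and its 4 differences lay between −0.12 and 0.44, with adjusted p from 0.417 to 0.883. The 95% confidence interval for ventilation in jnk1-/- mice ran from −0.23 to 1.08.

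**Figure D3:**
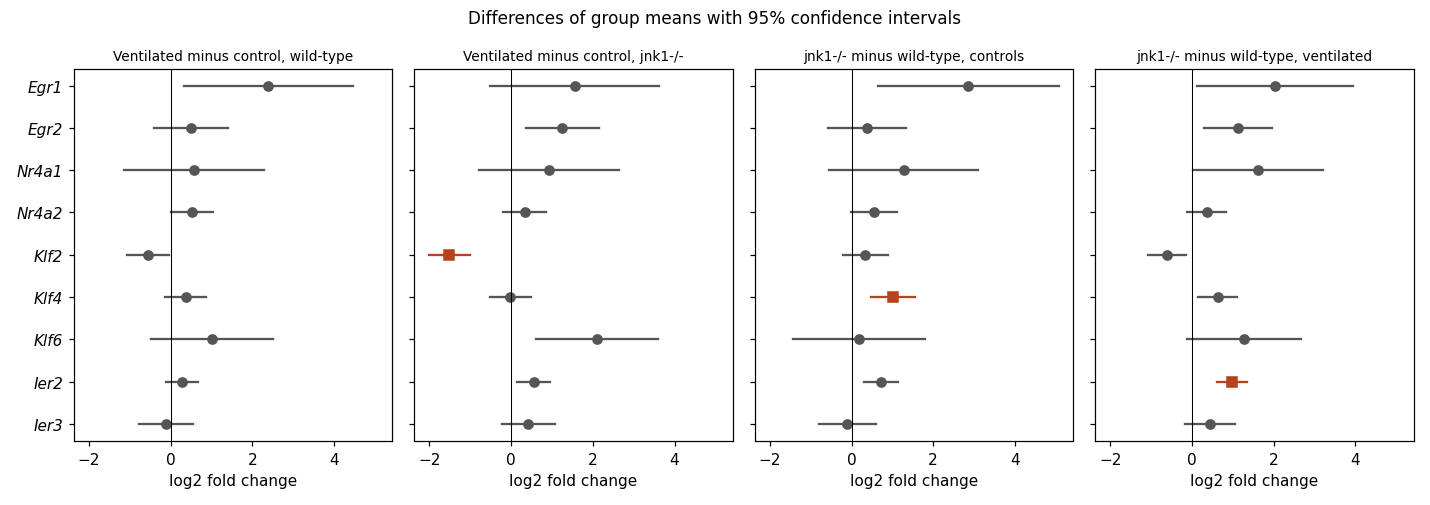
Log2 differences of group means for 9 members in 4 comparisons, with 95% confidence intervals from limma; squares mark the 3 differences past an adjusted p of 0.05 and circles all others. Egr3 is left out because it was at the authors' floor on 10 of 14 arrays, and Klf2 in the ventilated jnk1-/- mice is the only called decrease.

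Spread among the ventilated jnk1-/- mice was unevenly shared. Replicate 3 was the lowest of the 4 arrays for 7 of the 10 members, with a median deviation of −0.76 from the group means, and it was the highest for Klf2. Of 7877 genes in the brighter part of the array, 26.0% were lowest on this replicate, and the median deviation there was 0.03. Of 37 other immediate early genes 20 were lowest on it, with a median deviation of −0.32. Among the wild-type controls replicate 1 was lowest for 6 of the 10 members and highest for none, where 42.2% of the brighter genes were lowest on it. Without ventilated jnk1-/- replicate 3, ventilation called 3 members in jnk1-/- mice, Egr2, Klf6 and Klf2. The share of all genes called without this replicate is not given here, and with all arrays it was 12.8%. This replicate was singled out by its member values, so the count is not independent of that choice.

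**Figure D4:**
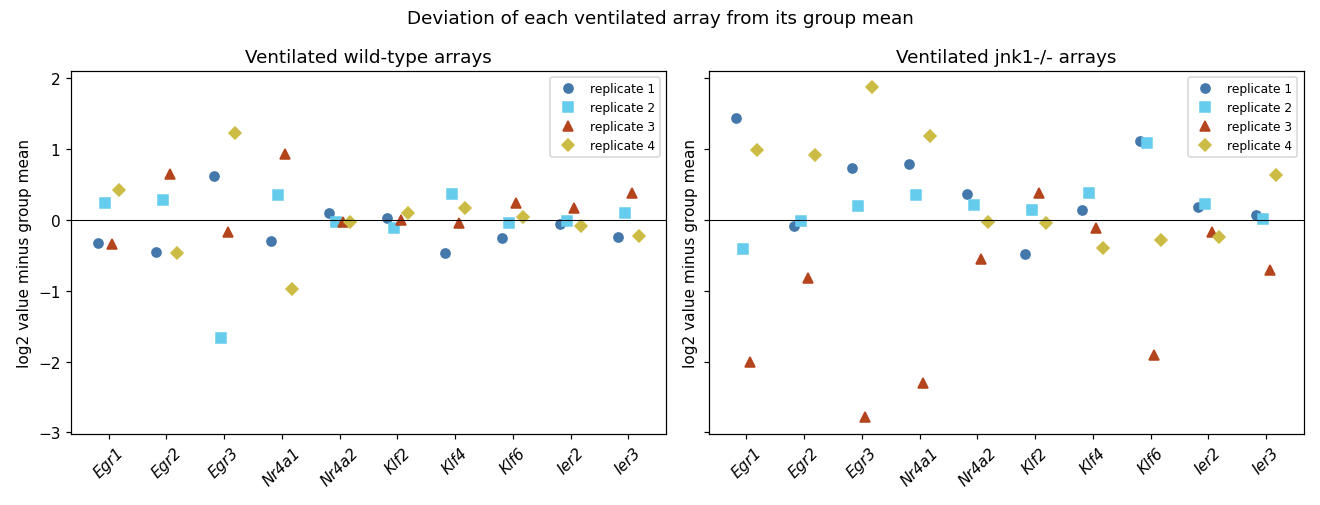
Deviation of each ventilated array from the mean of its group, in log2 units, for the 10 members in wild-type (left) and jnk1-/- mice (right), with a symbol per replicate. Replicate 3 of the jnk1-/- mice (triangles) is the lowest for 7 of 10 members.

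The rest of these families and the other immediate early genes were read with lists of known members. Of 18 other Egr, Nr4a, Klf and Ier genes 15 were measured, and 3 of these were at the authors' floor on at least 10 arrays. In wild-type mice 2 of the 15 rose with ventilation, in jnk1-/- mice 6 rose, and none fell, where 2.36% and 6.56% of all genes rose. Nr4a3 (Nor1), the closest relative of Nr4a1 and Nr4a2, rose by 0.99 in wild-type mice (standard error 0.23, adjusted p = 0.0390 from limma) and by 1.38 in jnk1-/- mice (standard error 0.23, adjusted p = 0.00379 from limma). Klf9, a gene that glucocorticoids are known to induce, rose by 2.00 and 1.82. In jnk1-/- mice Ier5 rose by 1.96 and Klf7 by 1.53. With the 10 members counted in, Klf2 was the only gene of these families called lower with ventilation in either genotype. The median difference of the 15 was 0.76 in wild-type and 0.40 in jnk1-/- mice, and no gene of this list was called between the genotypes. The difference of the ventilation effect called none of the 15 in limma, so the larger count in jnk1-/- mice is not shown to be a genotype effect.

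Of 39 other immediate early genes 37 were measured. Ventilation raised 9 of them in wild-type mice and 15 in jnk1-/- mice, where 2.36% and 6.56% of all genes rose, and lowered none. Their median differences were 0.72 and 0.94, against 0.04 and −0.08 over all genes. Fosl1, a Fos family partner of Jun in the AP-1 factor, rose by 3.25 in wild-type mice and 2.14 in jnk1-/- mice, and Myc by 2.11 and 1.94. The paper lists nearly equal Fosl1 ratios for both genotypes, so the larger wild-type rise here was not seen under its processing. Dusp1, a phosphatase that switches off MAP kinases, rose by 1.23 in wild-type mice, and its difference in jnk1-/- mice was 0.21. Errfi1, a feedback inhibitor of the EGF receptor, rose by 1.32 and 1.46, and Socs3, an inhibitor of cytokine signals, by 2.42 and 2.91. The difference of the ventilation effect called none of the 37 in limma, so the larger count in jnk1-/- mice is not shown to be a genotype effect. Between the controls 3 were higher in jnk1-/- mice, where 1.99% of all genes were called higher: Fosl1 by 1.94, Dusp1 by 1.25 and Plk3 by 0.88. The Fosl1 difference rests on the same wild-type control arrays as its wild-type rise. Between the ventilated groups none was called, against 0.596% of all genes, with a median difference of 0.72 (−0.02 over all genes).

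**Figure D5:**
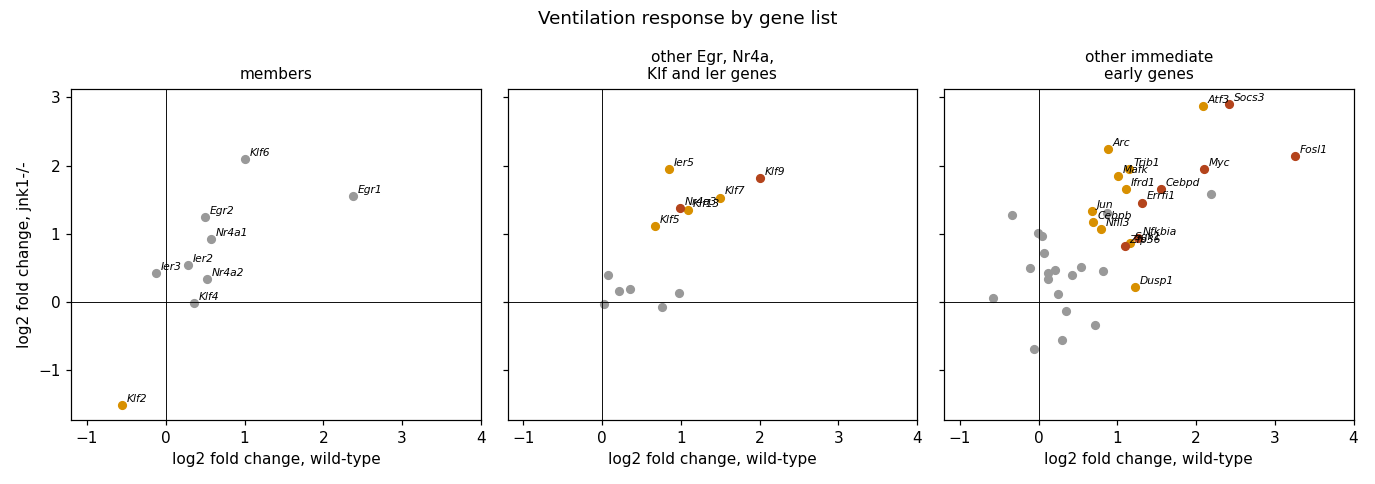
Ventilation difference (log2) in wild-type mice (x axis) against jnk1-/- mice (y axis) for the members, the other genes of their families and other immediate early genes; red points were called in both genotypes, orange in 1 and grey in none. Genes at the authors' floor on at least 10 arrays are left out (1 member, 3 and 1 of the other lists), and Klf2 is the only called point below 0 in jnk1-/- mice.

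Factors and kinases that act on early response promoters were mostly not called. Of 14 measured, of 17 listed, none was called in wild-type mice, and in jnk1-/- mice Crem, which encodes repressors and activators that bind the CRE, rose by 2.70 (standard error 0.52, adjusted p = 0.00742 from limma) and Elk3, a ternary complex factor, fell by 1.53 (standard error 0.43, adjusted p = 0.0384 from limma). Of all genes, 12.8% were called with ventilation in jnk1-/- mice and 4.31% in wild-type mice, in either direction. None of the 14 was called between the genotypes or for the difference of the ventilation effect in limma. Of 8 measured genes known as Egr1 targets, 1 rose in each genotype, F3, the tissue factor that starts coagulation, by 1.81 in wild-type and 2.10 in jnk1-/- mice. Of 8 measured genes known as targets of Klf2 or Klf4, none was called with ventilation in either genotype, with medians of 0.34 and −0.21. Nos3, the endothelial nitric oxide synthase and a known Klf2 target, had a difference of −1.84 in jnk1-/- mice (standard error 0.65, adjusted p = 0.0896 from limma), and Thbd, the anticoagulant thrombomodulin, one of −0.24 (standard error 0.25, adjusted p = 0.607 from limma). Both were named after their values were seen.

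The genes whose values followed a member most closely over the 14 arrays were found among 8368 probes by Pearson's r, which here also takes in the differences between the 4 groups and the shared normalization. For Klf2 they were Ak1 (r = 0.980), Ktn1 (0.976) and Ntpcr (0.950). For Nr4a1 they were Hlx (0.936), Egr2 (0.846) and Wdfy1 (0.845). For Egr1 they were Tcf25 (0.866), Atf3 (0.862) and Bmp4 (0.853). Egr2 and Atf3 are themselves immediate early genes, and the other names have no stated tie to them here.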

How the data were processed

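Total RNA of right lung tissue was hybridized to single-colour CodeLink UniSet I 20K mouse arrays. The authors deposited, for each array, log2 intensities of 19621 probes that are not on a common scale between arrays, and a second table of normalized log2 values, in which 24.5% of the entries sit at a common floor of 3.12. Without quality flags, the filter that the methods describe was left out here.

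Every pair of arrays was brought together by cyclic loess (span 0.67, R 4.3.3) on the deposited log2 values. A floor was set at percentile 1 of the entries above the lowest deposited value (−6.86), and values under it were raised to it (−0.64). Entries at the lowest deposited value, 1.86% to 10.7% of an array, were set to this floor as well. Over the other values above the authors' floor, r with the authors' table was at least 0.991. Probes were named by the platform's gene symbols (15353 name 1 gene, 91 several and 4177 none), and a gene was counted by its brightest probe. A limma 3.58.1 model (lmFit, then eBayes) of the 4 groups used all 14 arrays. For each of 5 comparisons the p-values of all probes were adjusted by Benjamini-Hochberg, and 0.05 was the threshold. The number of arrays limits the precision. Alternatives used quantile or fast loess normalization, the authors' table, the methods' t-test, only the arrays compared, no dim probes, no floor, a replicate block, array weights, or left out an array.

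Named genes are all members, up to 4 genes of each other list per comparison by adjusted p, Mapk8 and the 3 genes most correlated with Egr1, Klf2 and Nr4a1, plus those named as chosen after their values were seen. Members and lists were chosen with earlier results of these data known. On simulated data for wild-type ventilation (19621 probes), 36% of 2-fold and 65% of 4-fold changes were recovered, with 6.48% false calls. Python 3.11.15 with matplotlib 3.10.9 made the figures.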

Additional observations from a re-analysis of the deposited data

Results flagged for a closer look

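Nr4a2 on ventilated wild-type replicate 1 read 6.12 on the log2 scale, apart from the other 3 arrays of the group, of which the nearest read 5.98. The gap was 0.957 of the range of the group, above Dixon's 95% critical value for 4 samples. Of the 20 groups of 4 arrays tested (the ventilated groups of the 10 members), this was the only such array, and chance gives about 1 in 20.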

How the results depend on the processing

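Klf2 in jnk1-/- mice was the only called member whose call outlasted most alternatives. For ventilation in jnk1-/- mice the number of members called (1) was 2 in the authors' values, 0 in the methods' t-test, 4 of 8 tested with dim probes left out, 3 with array weights and 1 to 3 with an array left out. For the genotype in controls (1) it was 2 under quantile normalization, the fast form of cyclic loess, the authors' values, array weights and with dim probes left out, with Ier2 as the added gene. It was 0 in the methods' t-test, with only the arrays compared and with close control pairs averaged, an alternative chosen after the data were seen, and 0 to 1 with an array left out. For the genotype after ventilation (1) it was 0 in the methods' t-test, with only the arrays compared and with close pairs averaged, and 0 to 1 with an array left out. For ventilation in wild-type mice it was 1 with array weights (Klf2). The cause was not tested, and the share of all genes called under each alternative is not given here.

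Replicate numbers did not pair the arrays: correlations of same-numbered deviations lay between −0.355 and 0.250. With the replicate block, the members called were 0 for the genotype in controls and 0 after ventilation, with adjusted p of 0.0963 for Klf4 and 0.0945 for Ier2, and the call of Klf2 was kept. The block turned the Klf4 difference for ventilation in jnk1-/- mice to 0.019.

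Directions turned only for differences smaller than their standard error, chiefly when an array was left out. Klf4 for ventilation in jnk1-/- mice then ranged from −0.15 to 0.11, above 0 without ventilated jnk1-/- replicate 3 or 4. Ier3 ranged from −0.29 to 0.10 between controls and from −0.31 to 0.083 for wild-type ventilation, above 0 without wild-type control replicate 2 and, between controls, also without jnk1-/- control replicate 3, and was 0.0079 between controls with array weights. Nr4a1 for wild-type ventilation ranged from −0.010, without control replicate 1, to 0.90. Klf6 between controls ranged from −0.41 to 0.68, below 0 without replicate 3 of either genotype. Of the other single-gene values 649 kept direction and side of the threshold, 16 gained a call and 21 lost it. The mean of all probes of a gene was not run for members, which have 1 probe each, and Egr3 was left out because of its low signal.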
